A study of Drosophila melanogaster with 53 samples.

Results

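The 49 genes described here run the division cycle of fly cells: cyclins and their kinases, the phosphatases and kinases that start mitosis and meiosis, the activators of the anaphase-promoting complex (APC/C), the chromosomal passenger complex, the replication machinery, spindle motors, and centriole and centromere proteins. They were named one by one as cell cycle, replication and centrosome genes, and were found by matching the FlyBase identifiers of the deposited table to symbols or synonyms. All 49 were in the table of 15222 genes, and all 49 reached a mean of at least 10 normalized counts over all libraries, as did 12475 genes in all.

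Adult Drosophila melanogaster males were irradiated 2 days after eclosion and whole bodies were frozen 2, 10 or 20 days later. Groups were given 10, 1000, 5000, 10000 or 20000 R (roentgen, a unit of exposure to ionizing radiation), and controls received only the background dose. The labels name no strain, genotype or pooling, and all groups share the same labelled tissue, the whole body. Each dose and day had 3 RNA sequencing libraries, and control day 20 had 2, which makes 53. By its title the study asked whether flies respond to radiation only above a threshold dose.

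A cell enters S phase when cyclin E with Cdk2 fires replication origins that ORC and the Mcm proteins have licensed, and it enters division when a Cdc25 phosphatase switches on Cdk1 bound to a mitotic cyclin. The APC/C then ends division by having the cyclins destroyed, with fzy as its activator in mitosis and fzr afterwards. Most tissues of an adult fly no longer divide. The testis is one that does. Its germline stem cells feed spermatogonia, which divide by mitosis, grow as spermatocytes with a long transcription program, and pass through meiosis to become spermatids.

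The libraries held 15.4 to 46.2 M recovered reads (median 23.3 M), and 11213 to 14553 genes had a value above 0. The columns carry no replicate number, so letters (a, b, c) name the libraries of a group by the place of their column. By their values 9 of the 53 libraries stood apart from the rest. They were a of 20000 R day 10, c of 10000 R day 10, c of 5000 R day 20, b of the day 20 controls, and at 10 R libraries b and c of day 2, a and c of day 10 and c of day 20. In 10 R day 10 a and 10000 R day 10 c, transcripts that females make were high although the design text calls all flies males: Yp1, a yolk protein, stood at 89258 and 116245 normalized counts, and osk, an oocyte transcript, at 1668 and 1178. The summed level of 17 ovary and yolk genes was 307978 and 214962 there and between 1131 and 4261 in every other library. Counts of called genes are given with all libraries, and without these 9 where they move.

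At 10000 R and 20000 R many genes of mitosis and meiosis fell at days 10 and 20. The 11 licensing and fork genes of the set were not called over days with all libraries and the deposited scaling. The mean of the 3 within-day differences from control (the change over days) passed the threshold at 20000 R for 22 members, 21 lower and 1 higher. Of all tested genes, 20.7% were called lower in that comparison and 7.72% higher. The median change over days of the 49 was -0.55 on the log2 scale at 20000 R, against 0.08 for all tested genes. At 10000 R, 20 members were called lower and 1 higher over days, beside 21.2% and 6.42% of all tested genes, with a median of -0.44. In the fit without the 9 libraries, control day 20 and 10 R day 2 are library a alone, and 10 R day 10 is library b alone. That fit kept every one of these calls over days and made more at both doses. Most of the added ones are named below with their role groups. All calls given as lower or higher are from limma with a Benjamini-Hochberg adjusted p below 0.05, and changes are differences of log2(normalized count + 1) with the standard error (SE) of the fit.

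**Figure D1:**
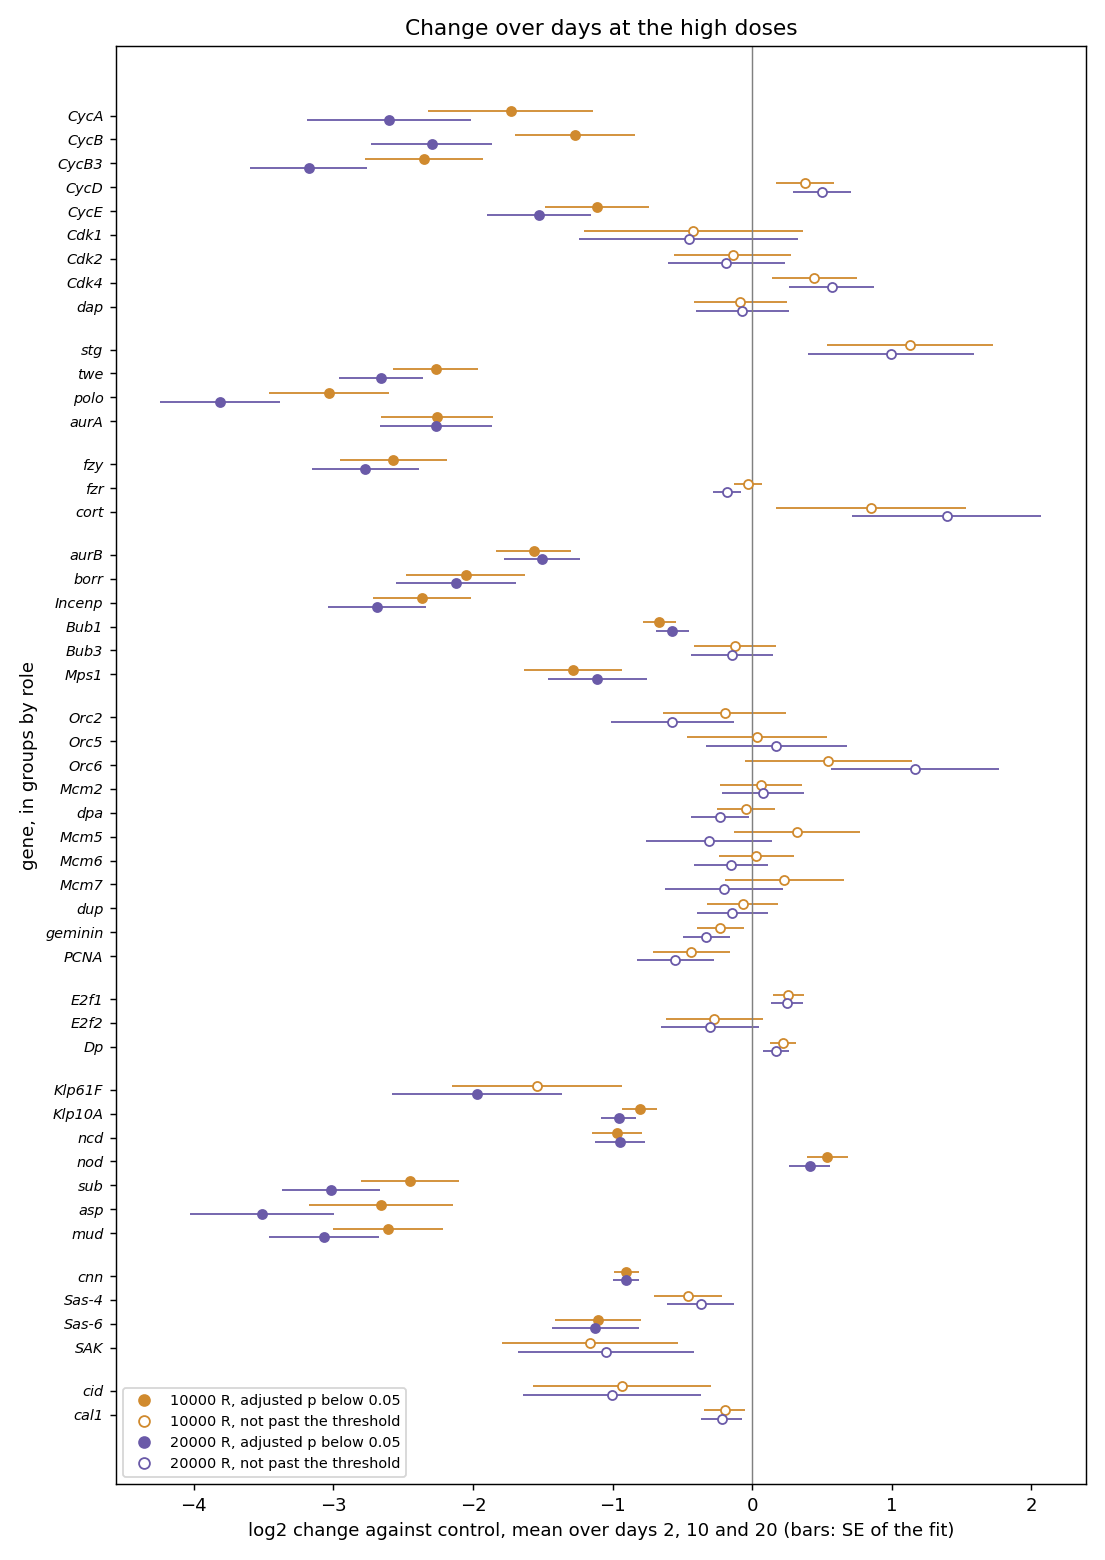
Log2 change against control as the mean over days 2, 10 and 20 (horizontal axis, bars are the SE) of each gene at 10000 R and 20000 R, in groups by role. Filled points passed an adjusted p of 0.05; polo lies farthest left at -3.81, and all 11 licensing and fork genes are open.

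The change depended on the day. Both high doses gave 0 called members at day 2, by limma, edgeR and DESeq2, and 0 members had an unadjusted p under 0.05 there. Of all tested genes 0.0962% were called at 10000 R and 0.16% at 20000 R. Every irradiated library of day 2 was below every control for 10 members at 10000 R (9.81% of all tested genes) and 12 at 20000 R (12.8%). Above every control were 2 (8.88%) and 3 (9.13%). At day 10, 20000 R gave 19 members lower and 0 higher, against 18.7% of all genes lower and 2.72% higher. At day 20 it gave 18 lower and 0 higher, against 16.9% and 5.6%. The counts at 10000 R were 17 lower and 1 higher at day 10 (19.9% and 2.21% of all genes; 12 lower and 13 higher after quantile normalization, with 17.2% and 30.5% of all genes) and 19 lower and 1 higher at day 20 (16.7% and 4.44%). When the 9 libraries were left out, 29 members were lower and 2 higher at 10000 R day 10, beside 25.1% and 6.48% of all genes.

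The summed transcripts of maturing germ cells fell on the same days, but single germline genes stood lower already at day 2. The summed level of 30 spermatocyte and spermatid genes was 2645 to 5128 normalized counts in the libraries of 10000 R and 20000 R at days 10 and 20 and 82579 to 210108 in all others, and 26 of the 29 tested were called lower over days at 20000 R. Among these genes can was at 0 in all libraries of 10000 R day 10, Taf12L in those of 10000 R day 20 and nht in those of 20000 R day 20. Another of them, aly, is too low to move the sum much. At day 2 it read 122.8 to 183.1 in controls, 60.2 to 76.9 after 5000 R, 53.4 to 87.8 after 10000 R and 63.3 to 75.1 after 20000 R. Of the 29 tested, 1 was called lower at 20000 R day 2. The 5 spermatogonia genes summed to 3341 to 4414 in controls and to 1946 to 3030 at the high doses of days 10 and 20, but some libraries of 5000 R were as low, with 2204 and 2466 at day 2, 1866 at day 10 and 1930 at day 20. At 20000 R over days 3 of the 5 were called lower, bgcn by -3.78, bam by -2.33 and mei-P26 by -0.38. In the day 10 controls mei-P26 made up most of the sum, with 3203, 3248 and 3054. Of 3 testis cyst cell genes 1 was called lower, with sums of 1369 to 1831 in the controls of days 10 and 20 and 1105 to 1296 after 20000 R. Of 4 blood cell genes 1 was called higher, with sums of 3247 to 4266 in those controls and 5358 to 7815 after 20000 R, and of 17 ovary and yolk genes 1 was lower and 1 higher. The part of these cells in the changes of the cell cycle genes was not tested, and in whole flies fewer cells of a type and less RNA per cell cannot be told apart. Of 2 gut stem cell genes named as markers, 0 were matched to the table, so these cells could not be looked at.

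Of the role groups, the Cdc25 phosphatases and mitotic kinases had the largest median change, -2.46 over days at 20000 R, with 3 of 4 members lower. The kinase polo, which activates the Cdc25 phosphatase and builds the spindle, stood at 1613, 1164 and 1223 normalized counts in the day 10 controls and at 116, 19.6 and 15.9 after 20000 R. On day 20 its controls read 1339 and 1116, and the irradiated libraries 27.2, 17.6 and 20.8, or 1.78% of the control mean. The groups did not overlap on either day. The change of polo was -5.26 ± 0.71 at day 10 (adjusted p = 9.51e-08) and -5.76 ± 0.80 at day 20 (adjusted p = 1.63e-07). On day 2 after 20000 R polo still read 1343, 1038 and 1148, a change of -0.41 ± 0.71 that missed the threshold. The kinase aurA, which matures centrosomes, went from 575, 461 and 491 at day 10 to 84.0, 32.6 and 26.5, a change of -3.57 ± 0.67 (adjusted p = 4.05e-05).

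The Cdc25 paralogs parted. Twine (twe), the phosphatase of meiosis, read 897, 791 and 769.6 in the day 10 controls and 174, 42.4 and 31.8 after 20000 R. Every irradiated library was below every control, and the change was -3.70 ± 0.50 (adjusted p = 1.04e-07). String (stg), the phosphatase of mitosis, read 61.3, 42.1 and 56.4 in the same controls and 228, 96.8 and 91.4 after 20000 R, so each irradiated library was above each control. Over days stg missed the threshold, with 0.99 ± 0.59 at 20000 R (adjusted p = 0.235) and 1.13 ± 0.59 at 10000 R (adjusted p = 0.167); the 10000 R value was called higher by edgeR (1.58, adjusted p = 0.0341) and by DESeq2 (1.55, adjusted p = 0.0142), and both were called after quantile normalization (1.76 and 1.94). One of the 10000 R day 10 libraries carried stg at 1207 against 59.5 and 102 in the other 2; it is one of the libraries with high Yp1, and without it the change over days at 10000 R was 0.69 (adjusted p = 0.41). Over days 10 and 20 together, the change of twe minus that of stg was -4.42 at 10000 R and -4.71 at 20000 R (two-sided exact permutation within days, 200 permutations, adjusted p = 0.008 each over 8 tests of paralog pairs). These pairs were compared after their values had been seen. An adjusted p of 0.008, here and below, comes from an exact p of 0.005, the smallest that 200 permutations allow. It therefore adds little to the values themselves.

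**Figure D2:**
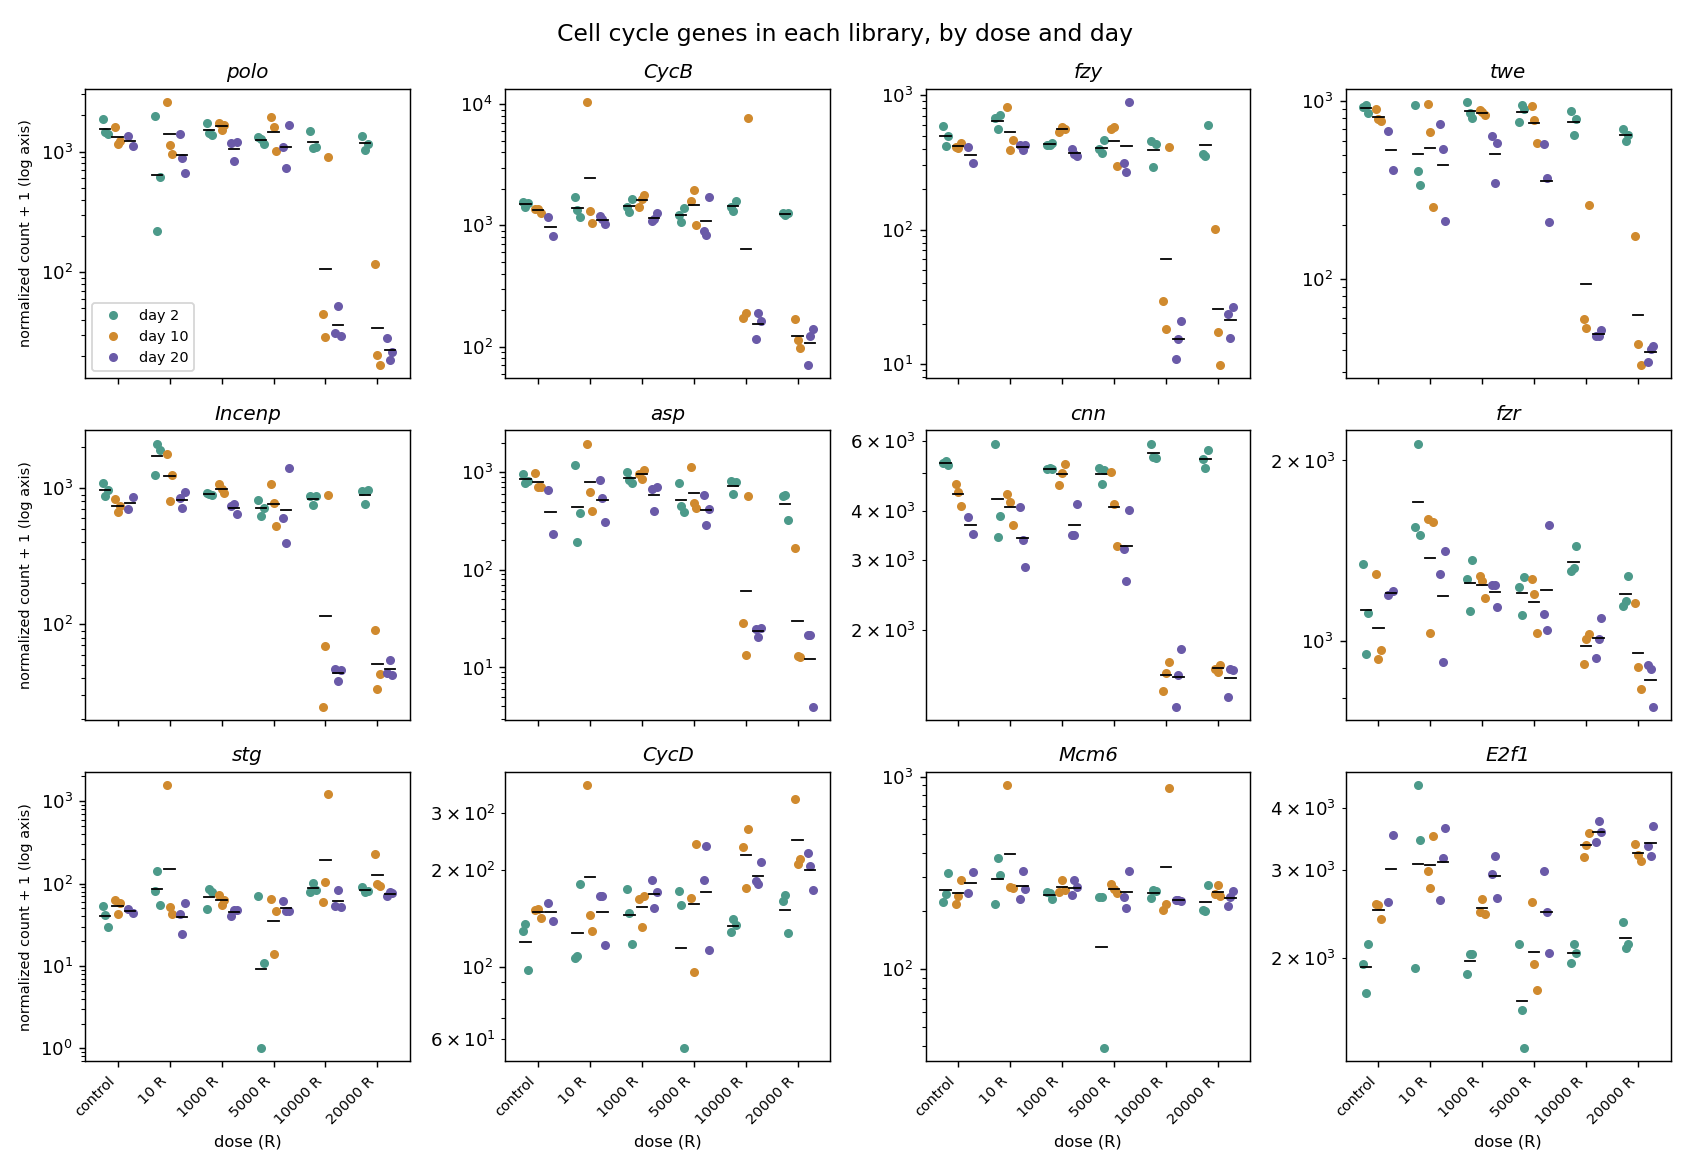
Normalized count + 1 in each library (points, log axis) of 12 genes by dose, with days 2, 10 and 20 in 3 colours and the mean of the log values as a bar. At 10000 R and 20000 R the day 10 and day 20 points of polo, fzy, twe, Incenp, asp and cnn drop below those of the other doses, apart from a single high point at 10000 R day 10 in all of these but cnn; fzr after 20000 R at day 20 lies between 774 and 908, and Mcm6 after 20000 R at day 10 between 238 and 272.

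The APC/C activators also split. Fizzy (fzy), which acts with the APC/C at anaphase, stood at 411, 401 and 443 in day 10 controls and at 101, 16.3 and 8.85 after 20000 R, with no overlap (-4.02 ± 0.64, adjusted p = 2.45e-06). Fizzy-related (fzr), which keeps the APC/C active after division and in cells that copy DNA without dividing, stood at 1293, 931 and 962 in the same controls. After 20000 R it read 1153, 904 and 830.4, and the 2 groups overlapped. On day 20 it read 1189.6 and 1208 in controls and 908, 896 and 774 after 20000 R, so the groups were apart, with a change of -0.48 ± 0.19 at the edge of the threshold (adjusted p = 0.0596; 0.0402 to 0.0459 without any 1 of 4 libraries, 10 R day 2 b, 10 R day 10 b, 10 R day 20 b or 5000 R day 20 c). The change of fzr over days was -0.18 ± 0.10 (adjusted p = 0.201), and without the 9 libraries -0.22 ± 0.09 (adjusted p = 0.0437). The third activator, cortex (cort), known from the female meiosis, read 17.2, 18.3 and 21.1 in day 10 controls and 54.4, 16.3 and 20.1 after 20000 R. It was higher in the libraries high in Yp1, with 172 in 10 R day 10 a and 163 in 10000 R day 10 c. The change of cort over days missed the threshold (1.39 ± 0.68, adjusted p = 0.129), and was called higher after quantile normalization (2.09). Without control day 20 a, which leaves library b alone in that group, it was 2.21. One day 20 control library held cort at 0 and the other at 29.4, so differences from control at that day rest on which of these is used. The difference between the changes of fzy and fzr over days 10 and 20 was -3.50 at 10000 R (exact permutation, adjusted p = 0.0133) and -3.73 at 20000 R (adjusted p = 0.008). For fzy and cort it was -5.10 and -5.60 (adjusted p = 0.008 each). With 8 instead of 1 added to each value, this second difference was -4.16 and -4.46. Without the 9 libraries, among them the day 20 control with cort at 0, it was -3.95 and -4.70.

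Among the cyclins, Cdks and the Cdk inhibitor, 4 of 9 members fell over days at 20000 R: the mitotic cyclins CycA, CycB and CycB3, and CycE, the cyclin of S phase entry. CycB3, a cyclin of anaphase, went from 799.9, 656 and 766 in day 10 controls to 144, 17.4 and 11.8 (-4.51 ± 0.70, adjusted p = 1.51e-06). CycB went from 1361, 1374 and 1257 to 167, 113 and 96.1 (-3.44 ± 0.72, adjusted p = 0.000215). For CycA the controls read 531, 493 and 436 and the irradiated libraries 215, 33.7 and 17.7. For all 3 mitotic cyclins, every 20000 R library of day 10 was below every control. The change of CycA at that day (-3.23 ± 0.98, adjusted p = 0.0122) lost its call without library b (-2.94, adjusted p = 0.059) or c (-2.49, adjusted p = 0.115), and with edgeR (-2.44, adjusted p = 0.0705).

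The catalytic partners of these cyclins were not called with all libraries. Cdk1, which the mitotic cyclins activate, stood at -0.46 ± 0.78 over days at 20000 R, Cdk2 at -0.18 ± 0.42 and dap, the inhibitor of CycE with Cdk2, at -0.07 ± 0.33. Without the 9 libraries Cdk1 was called lower at 20000 R (-1.56, adjusted p = 0.0023) and at 10000 R (-1.47, adjusted p = 0.0041), and after quantile normalization it stood at 0.34 and was not called. The cyclin of growth, CycD, and its kinase Cdk4 stood at 0.50 ± 0.21 (adjusted p = 0.0697) and 0.57 ± 0.30 (adjusted p = 0.17). CycD was called higher by edgeR (0.54), by DESeq2 (0.51), after TMM rescaling (0.53) and after quantile normalization (0.97), and Cdk4 after quantile normalization (1.01). Cdk4 was also called without control day 20 a, at 20000 R (0.95, adjusted p = 0.0153) and at 10000 R (0.83, adjusted p = 0.0396). The group's median was -0.46 and turned to 0.34 after quantile normalization, which called 4 members lower and 2 higher.

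At 10000 R the cyclins depended on 1 library, and several other members on the fit used. CycA read 35.7, 49.9 and 1954 at day 10, CycB 171, 189.6 and 7737, and CycB3 32.1, 52.3 and 1153; the third value in each case comes from library c, which is high in Yp1. CycA and CycB were not called at 10000 R day 10 with all libraries, and were called without library c (-3.49, adjusted p = 0.00231, and -2.88, adjusted p = 4.77e-06). On day 20, where no such library exists, CycA read 30.8, 29.7 and 28.7 after 10000 R against 375 and 316 in controls (-3.49 ± 1.10, adjusted p = 0.0166). That call was lost without control day 20 a (-3.37, adjusted p = 0.0762) or b (-3.61, adjusted p = 0.0833), and the call of CycB (-2.68 ± 0.80, adjusted p = 0.0118) was lost without control day 20 a (-2.42, adjusted p = 0.0827). Over days, edgeR and DESeq2 did not call CycA (-1.0 and -1.04), CycB (-0.54 and -0.57) or CycE (-0.59 and -0.63) at 10000 R, while limma did (-1.73, -1.27 and -1.11). These 3 calls of limma were lost without 10000 R day 10 a (-1.39, -0.96 and -0.86) or b (-1.47, -0.98 and -0.89), and those of CycA and CycB also without control day 20 a (-1.69 and -1.18). At 10000 R day 10 limma called CycB3, asp, fzy, Incenp and borr lower, and edgeR and DESeq2 called none of them. CycB3 stood at -0.76 with edgeR (adjusted p = 0.491) and borr at -0.52 (adjusted p = 0.672). Without library a or b limma lost the calls of CycB3 (adjusted p = 0.126 and 0.0761) and borr (adjusted p = 0.0529 and 0.347).

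Of the passenger complex and spindle checkpoint, 5 of 6 members were lower over days at 20000 R, with a median of -1.31. The complex corrects wrong attachments of chromosomes to the spindle. Its scaffold Incenp went from 831, 673 and 741 in day 10 controls to 90.0, 32.6 and 42.5 (-3.87 ± 0.58, adjusted p = 8.95e-07), without overlap. Its targeting subunit borr went from 243, 170.2 and 206 to 49.4, 12 and 21.8 (-3.06 ± 0.71, adjusted p = 0.000864), and its kinase aurB changed by -1.51 ± 0.27 over days (adjusted p = 1.76e-05). Of the checkpoint proteins, the kinase Bub1 changed by -0.57 ± 0.12 over days (adjusted p = 0.000138) and the kinase Mps1 by -1.11 ± 0.35 (adjusted p = 0.015; -0.94 and adjusted p = 0.0683 without control day 20 a; -0.34 after quantile normalization, adjusted p = 0.231). Bub3, the partner of Bub1, stood at -0.14 ± 0.29 and was not called. Bub1 was thus called and its partner was not, but the differences between members of a complex were not tested.

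Spindle motors and organisers were called in all 7 cases over days at 20000 R, 6 lower and 1 higher. Asp, which focuses spindle poles, read 977, 701 and 712 in day 10 controls and 165, 12 and 11.8 after 20000 R (-4.71 ± 0.86, adjusted p = 2.76e-05). Subito (sub), a kinesin of the central spindle, read 383, 308 and 264 against 70.2, 5.44 and 8.85 (-4.26 ± 0.58, adjusted p = 1.21e-07). Mud, which orients the spindle, read 3319, 2651 and 2505 against 434, 78.3 and 76.1 (-4.34 ± 0.66, adjusted p = 9.42e-07). In each of the 3, the groups were apart, and library a of 20000 R day 10, which is high in His1 histone genes, was the highest of the irradiated. In a reference annotation of another build, an antisense RNA covers 98.6% of the exon bases of mud, and whether counting used strand is not stated, so reads of the 2 genes cannot be told apart.

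The other spindle genes moved less. Klp10A, a kinesin that shortens microtubules, changed by -0.95 ± 0.13 over days, ncd, a minus-end motor of the female meiotic spindle, by -0.94 ± 0.18, and Klp61F, the motor that pushes spindle poles apart, by -1.97 ± 0.61 (adjusted p = 0.0114). Nod, which pushes chromosomes toward the spindle equator in female meiosis, was called higher over days at both high doses. By limma with all libraries and the deposited scaling it was the only such member, and other fits called more members higher. Quantile normalization called 8 higher at 20000 R. Nod stood at 0.41 ± 0.15 at 20000 R (adjusted p = 0.0289) and 0.54 ± 0.15 at 10000 R (adjusted p = 0.0039). On day 10 it read 372, 288 and 307 in controls and 379.7, 467 and 807 after 10000 R, so the groups were apart; the call there (0.70 ± 0.24, adjusted p = 0.0293) was lost without control day 10 b (0.63), c (0.67) or 10000 R day 10 c (0.39, adjusted p = 0.354). The call over days at 20000 R was lost on leaving out any of 8 libraries (0.37 to 0.42, adjusted p up to 0.0641): control day 2 b or c, control day 10 b, control day 20 a or b, 20000 R day 2 b, day 10 a or day 20 b.

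Replication licensing and fork genes gave no call over days with all libraries and the deposited scaling. Over days at 20000 R, 0 of the 11 passed with limma, edgeR or DESeq2, and 0 had an unadjusted p under 0.05; the same held at 10000 R. The group's median was -0.20 at 20000 R, and 0.25 after quantile normalization, which called 1 of them, Orc6, higher (1.90). Changes over days ran from -0.57 for Orc2, a subunit of the origin recognition complex, to 1.17 for Orc6, another subunit, which was called without control day 20 a (1.98, adjusted p = 0.00955). The helicase subunit Mcm6 read 217, 238 and 289 in day 10 controls and 243, 272 and 238 after 20000 R, which overlap. The other helicase subunits Mcm2, dpa, Mcm5 and Mcm7 stood between -0.31 and 0.08, the loader of the helicase dup at -0.14, its inhibitor geminin at -0.33 and PCNA, the clamp that holds the polymerase, at -0.55 (adjusted p = 0.145). In the fit that leaves out the 9 libraries, 3 of the 11 were called lower at 20000 R: Mcm7 (-0.90), PCNA (-0.77) and geminin (-0.33). PCNA was called lower there also without only the 2 libraries high in Yp1 (-0.55, adjusted p = 0.00658). At 10000 R the fit without the 9 libraries called the same 3 genes lower, Mcm7 by -0.66, PCNA by -0.92 and geminin by -0.30. PCNA was called there also without 10000 R day 10 c alone (-0.71, adjusted p = 0.0207), and Orc6 was called higher after quantile normalization (1.34).

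The E2F factors switch the S phase genes on and off. Limma with all libraries and the deposited scaling did not call them over days at either dose. At 20000 R E2f1, the activator, stood at 0.25 ± 0.11 (adjusted p = 0.0948), E2f2, the repressor, at -0.30 ± 0.35 and their partner Dp at 0.17 ± 0.09. On day 10, E2f1 read 2565, 2549.9 and 2393 in controls and 3397, 3225 and 3137 after 20000 R, and E2f2 375, 363 and 349 against 235, 202 and 207, so both pairs of groups were apart, in opposite directions. On day 20, 1 control library set them otherwise: E2f2 read 311 and 130.1 in controls. The change of E2f2 minus that of E2f1 over days 10 and 20 was -0.70 at 10000 R (exact permutation, adjusted p = 0.0971) and -0.58 at 20000 R (adjusted p = 0.17). With the 9 libraries left out it was -1.25 and -1.02, each with p = 0.025, the smallest that 40 permutations allow. With quantile normalization E2f1 (0.35) and Dp (0.33) were called higher at 20000 R, and without the 9 libraries E2f1 (0.31) was. In that fit E2f2 was called lower at 20000 R (-0.53, adjusted p = 1.4e-05) and at 10000 R (-0.57, adjusted p = 4.33e-06). At 10000 R over days, Dp (0.22 ± 0.09) was called by edgeR (0.25), after TMM rescaling (0.25) and after quantile normalization (0.35). Dp was called higher at 10000 R day 20, where it read 1318, 1285 and 1349 against 1051 and 853 (0.48 ± 0.18, adjusted p = 0.0469). That call was lost in most fits without 1 library, including those without control day 20 b (0.33, adjusted p = 0.475) or without 10000 R day 20 a, b or c (0.46 to 0.49).

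Of the 4 centriole and centrosome genes, 2 were lower over days at 20000 R. Centrosomin (cnn), the scaffold of the material around the centriole, had the smallest adjusted p of all members (5.5e-11) with a change of -0.90 ± 0.09 (-0.82 after quantile normalization). It read 4667, 4467 and 4103 in day 10 controls, 1405, 1560.1 and 1663 after 10000 R and 1594, 1570.2 and 1631 after 20000 R. Its day 20 libraries lay between 1279 and 1791 at both doses, and the mean at 20000 R day 20 was 41.1% of the control mean, against 1.78% for polo. Library c of 10000 R day 10, where the cyclins were high, read 1663 and so was close to the other 2. Sas-6, the template of new centrioles, changed by -1.12 ± 0.31 (adjusted p = 0.0044). Sas-4, which assembles the centriole wall, and SAK, the kinase that starts its duplication, stood at -0.37 ± 0.24 and -1.05 ± 0.63 and were not called with all libraries. Without the 9 libraries SAK was called lower at 20000 R (-1.58, adjusted p = 5.08e-05) and at 10000 R (-1.45, adjusted p = 0.00017), where DESeq2 called it too (-1.23, adjusted p = 0.0378), and Sas-4 was called at 10000 R (-0.71, adjusted p = 0.00467). The centromere genes cid, the histone variant of centromeres, and cal1, which loads it, stood at -1.0 ± 0.64 and -0.22 ± 0.15 and were not called with all libraries by limma, edgeR or DESeq2. Cal1 was called lower without the 9 libraries at 20000 R (-0.38, adjusted p = 0.0121) and 10000 R (-0.38, adjusted p = 0.013), and cid at 10000 R without the 2 libraries high in Yp1 (-1.42, adjusted p = 0.0468).

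**Figure D3:**
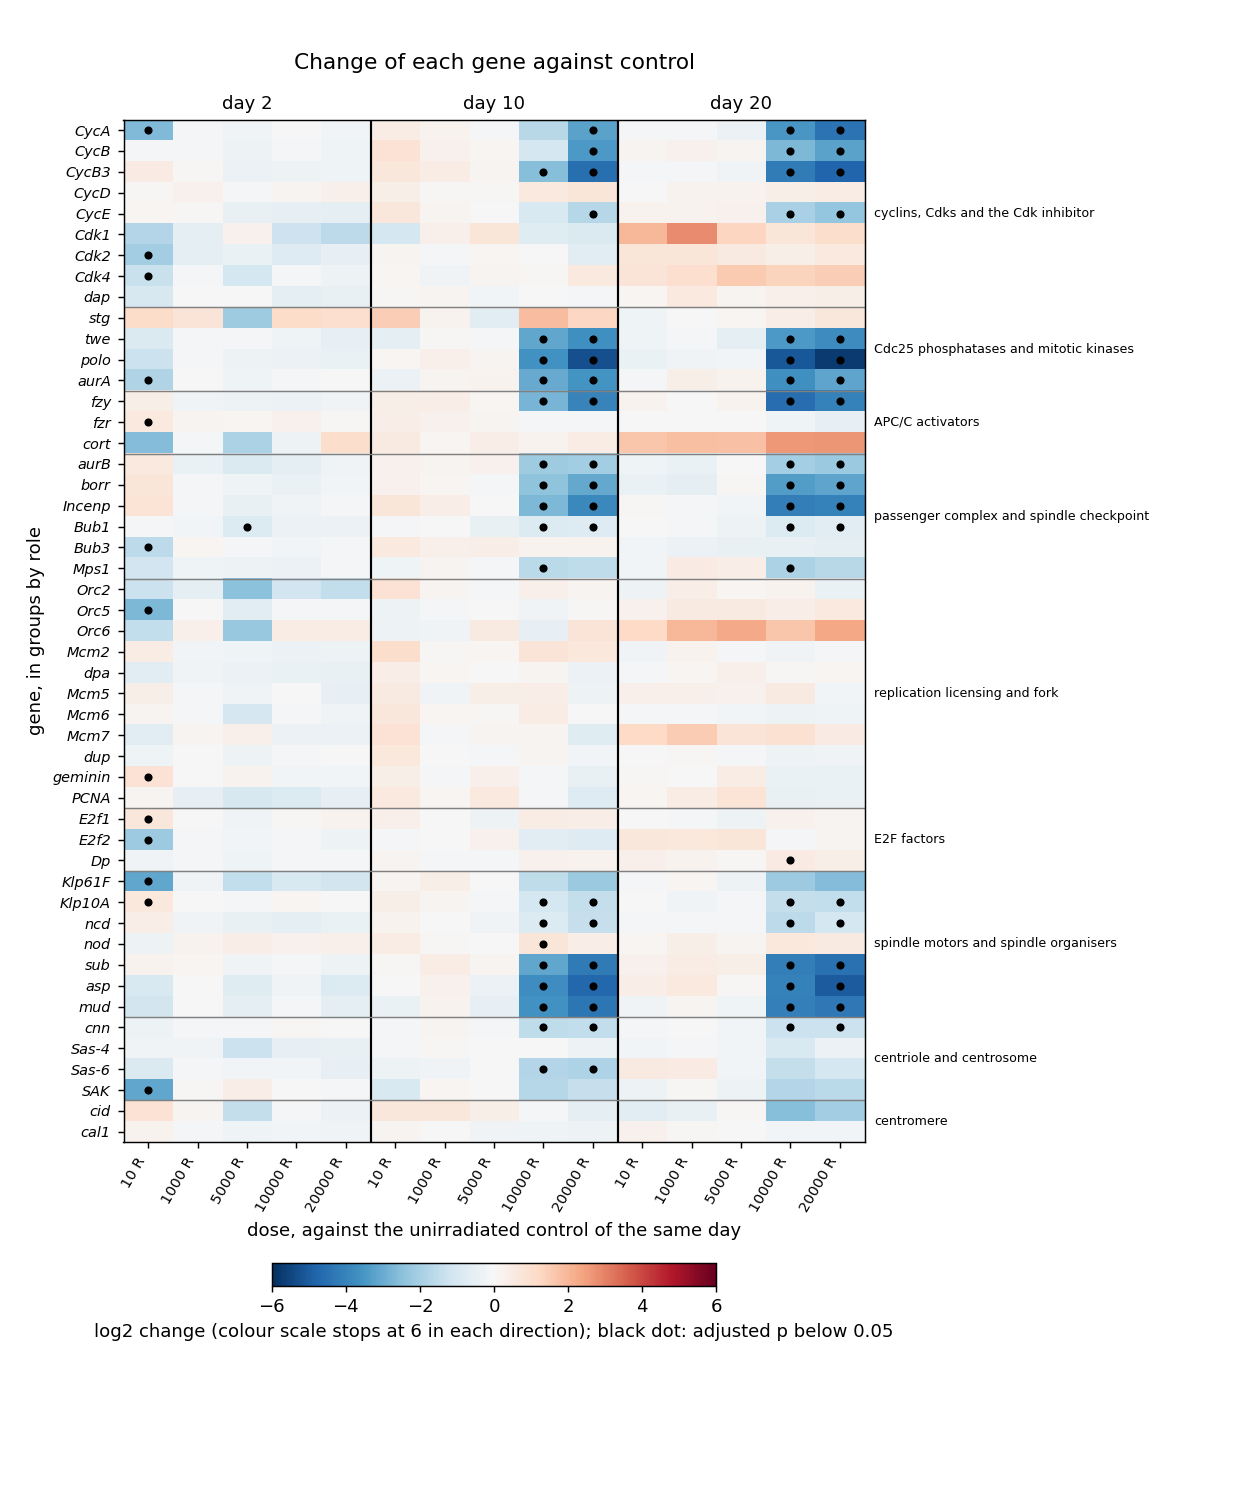
Log2 change of each gene (rows, in groups by role) against the unirradiated control of the same day, for 5 doses at days 2, 10 and 20 (columns), with black dots for an adjusted p below 0.05. Many mitotic genes have blue cells with dots in the 10000 R and 20000 R columns of days 10 and 20, but CycA and CycB have none at 10000 R day 10. The 13 dots at 10 R day 2 rest on 2 libraries that stand apart.

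The dose steps put the difference between 5000 R and 10000 R. Against 5000 R, 10000 R gave 14 members lower and 2 higher at day 10, beside 20.2% and 7.2% of all tested genes, and 21 lower and 1 higher at day 20, beside 18.8% and 6.23%. Polo changed by -3.79 ± 0.71 (adjusted p = 4.15e-05) in this step at day 10 and by -4.92 ± 0.71 at day 20. E2f1 was higher in the step at both days, by 0.72 ± 0.19 and 0.54 ± 0.19, and nod at day 10 by 0.67 ± 0.24. The 9 libraries left out, 29 members were called at day 10, beside 40.1% of all genes. At day 2 the step gave 0 called members with limma, edgeR and DESeq2, 4 with an unadjusted p under 0.05, and 2 without the 9 libraries; 0.016% of all genes were called, and 4.78% without the 9.

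Between 1000 R and 5000 R, 0 members were called on any day with limma, edgeR or DESeq2, while 0.0561%, 0.00802% and 0.0% of all genes were called at days 2, 10 and 20. At an unadjusted p under 0.05 there were 6, 1 and 0 members, and without the 9 libraries 4 were called at day 2, beside 4.02% of all genes. Between 10000 R and 20000 R, limma called 0 members on any day, beside 0.016%, 0.697% and 1.33% of all genes; 0, 4 and 0 members had an unadjusted p under 0.05 at days 2, 10 and 20. At day 10, edgeR called 4 members and 1.41% of all genes, DESeq2 7 members and 4.2%, and the library high in Yp1 lies on the 10000 R side of that step.

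After 1000 R, 0 members were called at any day or over days by limma, edgeR or DESeq2, and 0 had an unadjusted p under 0.05; at most 0.016% of all genes were called. After 5000 R the 1 call was Bub1, the checkpoint kinase. It read 1231, 1227 and 1321 in day 2 controls and 1105, 621 and 542 after 5000 R, without overlap, a change of -0.81 ± 0.20 (adjusted p = 0.0454) beside 0.401% of all genes called lower and 0.0481% higher. That call is at the edge of the threshold, was not made by edgeR (-0.72, adjusted p = 0.151), and was lost in most fits without 1 library, down to -0.60 (adjusted p = 0.617) without 5000 R day 2 c. Over days it was -0.51 ± 0.12 (adjusted p = 0.0109; 3.18% of all genes lower and 1.37% higher), and -0.60 without the 9 libraries. At days 10 and 20 after 5000 R, 0 members were called by limma, edgeR or DESeq2 (1 and 2 with an unadjusted p under 0.05), beside 0.016% and 0.473% of all genes. With the 9 libraries left out, 6 members were called at 5000 R day 2, all lower: Bub1, cort (-1.92), Orc2 (-2.46), PCNA (-0.95), Klp61F (-1.49) and Sas-4 (-1.29); 4.41% of all genes were called lower in that fit. Of these, cort and Orc2 are low genes, and library 5000 R day 2 b held 4 members at 0.

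The lowest dose gave calls on day 2 that rest on 2 libraries. After 10 R, 9 members were lower and 4 higher at day 2, while 32% and 15.4% of all tested genes were called in those directions. CycA read 719 in library a and 16.8 and 63.4 in libraries b and c, against 697, 539 and 542 in controls. Klp61F, SAK and Orc5 were at 0 in library b. Called lower were CycA, Cdk2, Cdk4, aurA, Bub3, Orc5, E2f2, Klp61F and SAK, and called higher were fzr, geminin, E2f1 and Klp10A. Libraries b and c are 2 of the libraries with few genes above 0. Without the 9 libraries 10 R day 2 is library a alone, so that fit cannot decide whether the dose moved these genes. At days 10 and 20 after 10 R, 0 members were called by limma, edgeR or DESeq2, beside 0.0% and 0.016% of all genes. Over days fzr (0.32 ± 0.10) and E2f1 (0.34 ± 0.11) were called higher, beside 3.74% of all genes higher and 9.81% lower. Without the 9 libraries each of the 2 genes stood at 0.10, in a fit where 10 R day 10 is library b alone too.

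In unirradiated flies age moved few members. Between day 2 and day 10, 0 members passed with limma, edgeR or DESeq2 (1 with an unadjusted p under 0.05), against 2.76% of all genes. Between day 2 and day 20, cnn was lower (-0.52 ± 0.17, adjusted p = 0.0447) and E2f1 higher (0.66 ± 0.21, adjusted p = 0.0415), against 4.28% of all genes lower and 3.9% higher. Cnn fell from 5282, 5335 and 5236 to 3868 and 3489, and E2f1 went from 1943, 1702 and 2131 to 2585 and 3529, both without overlap. Neither was called without the 9 libraries, where control day 20 is library a alone, and leaving out 1 library gave 0 to 7 calls, the highest without control day 20 a.

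Levels per length in controls spanned a wide range. Klp10A (761 ± 88.0 normalized counts per kb of exon, SD over 8 control libraries) and cnn (735 ± 113) had the highest levels and did not differ beyond their spread; geminin followed at 540.0 ± 39 and polo at 468 ± 84.1. At the low end stood stg with 15.2 ± 3.34 and cort with 10.6 ± 5.13. Of the control level, 20000 R day 20 libraries kept 3.33% of asp, 3.76% of CycB3, 4.33% of sub, 4.64% of CycA and 5.8% of fzy, then 10.4% of aurA, 11.1% of CycB, 21.4% of aurB, 35.8% of Klp10A and 64.4% of Bub1. At that day the irradiated and control libraries were apart for 32 members, 27 lower (26.2% of all tested genes) and 5 higher (25.2%).

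In 10 R day 10 a and 10000 R day 10 c, the libraries with high Yp1, many cell cycle genes stood high too. In 10 R day 10 a, 34 of 49 members exceeded the mean of the other 2 libraries of the group by more than 2-fold (69.4%, against 13.3% of all tested genes). In 10000 R day 10 c, 31 did (63.3%, against 5.74%), 15 of them by more than 10-fold. CycA was 44.6-fold and CycB 42.6-fold higher there. Licensing and fork genes took part, which limma did not call over days at the high doses with all libraries and the deposited scaling. Of these, 10 of 11 passed 2-fold in the first library and 8 of 11 in the second, with median ratios of 5.56 and 4.79. Of the E2F factors 0 of 3 did in either library, and cnn stood at 1.12 in both. These are values of single libraries, with no test.

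**Figure D4:**
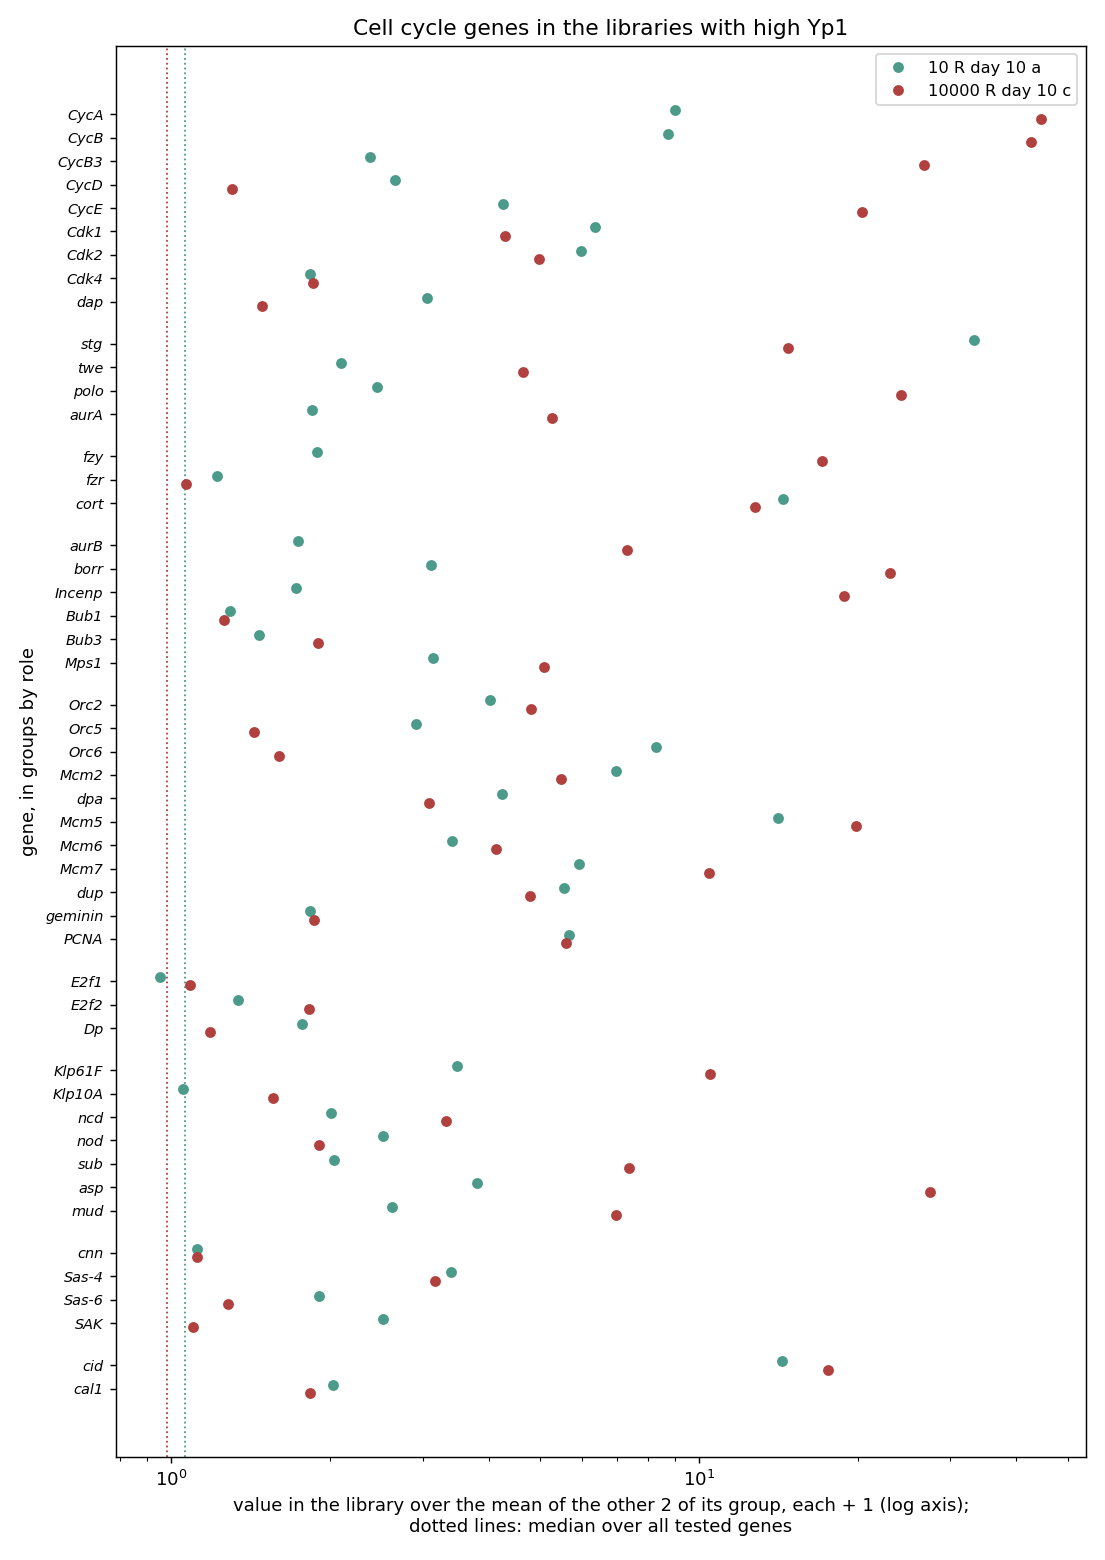
Value of each gene in 10 R day 10 a and in 10000 R day 10 c over the mean of the other 2 libraries of the same group, 1 added to each (log axis), with dotted lines at the median ratio of all tested genes. Most points lie right of 2, CycA and CycB in 10000 R day 10 c lie farthest right, and E2f1, cnn and fzr lie near the dotted lines.

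Other genes of the same machinery, in 7 lists of 138 tested genes that are not among the 49, were called lower in 50 cases and higher in 4 over days at 20000 R, and 0 were called at day 2 after that dose. The shares of all tested genes called in that comparison are given above with the counts of the 49. Whether any of the 7 lists held more called genes than those shares was not tested. The genes named here were picked from the called ones and do not stand for their list. Among centriole and centrosome genes, 10 of 12 were lower with a median of -1.45, led by Poc1 (-3.13 ± 0.24), a centriole protein. Among spindle and midbody genes, 12 of 32 were lower and 2 higher, with the kinesins Klp59C (-4.60 ± 0.16) and Klp59D (-4.61 ± 0.21) far below control and Klp3A, a kinesin of cytokinesis, at -2.37 ± 0.15. Among kinetochore and checkpoint genes 5 of 15 were lower, with the kinetochore motor cmet at -3.32 ± 0.48 and the checkpoint protein mad2 at -1.97 ± 0.57. Among cohesin, condensin and separase genes 4 of 15 were lower, with mei-S332, the protector of centromeric cohesin, at -2.33 ± 0.14. The list medians were -0.50 for spindle and midbody genes, -0.39 for kinetochore and checkpoint genes and 0.105 for the cohesin list. The median of all tested genes was 0.08.

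Replication genes outside the 49 gave 8 of 29 lower and 1 higher, led by Orc3 (-2.73 ± 0.22), a subunit of the origin recognition complex, which read 2088, 1653 and 1718 in day 10 controls and 310.4, 77.2 and 59.6 after 20000 R. The groups were apart. That change of Orc3 stands beside the calls missed by Orc2, Orc5 and Orc6; the difference was not tested. Of other cell cycle regulators 6 of 22 were lower and 1 higher, among them the Cdk1 inhibiting kinase Wee1 (-0.98 ± 0.09) and the CycA inhibitor rux (-1.42 ± 0.15). Of APC/C and SCF subunits 5 of 13 were lower, among them Cdc27 (-0.80 ± 0.08) and Cdc23 (-1.03 ± 0.12). These counts too were not tested against the share of all tested genes called. The list medians were 0.058 for replication genes, 0.065 for other cell cycle regulators and -0.22 for APC/C and SCF subunits. For all tested genes the median was 0.08, so the first 2 lists had medians near that of all genes. With the 9 libraries left out, where control day 20 is library a alone, these medians were -0.30, -0.04 and -0.33 in the same order.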

How the data were processed

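Messenger RNA of whole flies was sequenced from TruSeq libraries, per the labels' protocols, and the submitters' processing notes name TopHat2 2.0, DESeq and genome build dm3. The strand setting, the counting program and the annotation's release are named nowhere in the sources used here. The deposited signal of each library is a count divided by 1 size factor: within a tolerance of 0.1, 100% of the values were whole multiples of 1 step per library, and the recovered reads went to edgeR 4.0.16 and DESeq2 1.42.0 as alternatives. Libraries of a group always differed by more than sampling noise (chi-square per degree of freedom at least 6.71). Whether libraries of a group came from separate flies or vials is not in the labels; p-values therefore measure the spread between libraries, which may be technical.

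Log2(normalized count + 1) of 12475 genes with a mean of at least 10 was fitted with limma 3.58.1 (R 4.3.3, eBayes with trend), 1 mean for each of 18 groups, all 53 libraries sharing 1 spread, two-sided, Benjamini-Hochberg adjustment over all tested genes per contrast, threshold 0.05. Control day 20 rests on 2 libraries. The log scale understates changes of low genes. An F test compared each dose's change between the 3 days. The pipeline was tested on simulated data. Doses of a day share their controls, so their changes are not independent.

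The members, role groups, pathway and marker lists were chosen with earlier results of these data known. Values in every library were given for the 12 members with the largest called change at 20000 R over days, for those called higher on a single day at the high doses, for Bub1, called at day 2, and for the Cdc25, mitotic cyclin, APC/C activator and E2F paralogs. Values of cnn and Mcm6, of Orc3, and the tests of paralog pairs were added after the values had been seen, as were the fits without the 2 libraries high in Yp1. Libraries with under 12300 genes above 0, with Yp1 above 50000 or with His1 genes summing to over 50000 were taken to stand apart. Exon lengths and overlaps come from a reference annotation of another build; in it, exons of 10 members overlap an opposite-strand gene over more than 10% of their bases: mud, Mcm7, Cdk2, sub, E2f2, SAK, Bub3, ncd, cal1 and Klp61F.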

Additional observations from a re-analysis of the deposited data

Results flagged for a closer look

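For 11 members at 10000 R and 13 at 20000 R the response differed between days by limma's F test over the 3 days. In that test, 14.1% and 13.8% of all tested genes were called, and 0 members were called at 5000 R (4 with an unadjusted p under 0.05, 0 with edgeR), where 0.0561% of all genes were. The values below are the change at day 10 minus the change at day 2, on the log2 scale.

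At 20000 R that difference was -4.85 for polo, -4.26 for CycB3, -3.94 for sub, -3.88 for asp, -3.79 for fzy, -3.79 for mud, -3.74 for Incenp, -3.52 for aurA, -3.20 for twe, -3.18 for CycB, -1.90 for aurB, -1.5 for cnn and -1.45 for Klp10A. Adjusted p ran from 4.65e-07 for cnn to 0.0434 for CycB. At 10000 R it was -3.53 for mud, -3.49 for asp, -3.27 for polo, -3.02 for sub, -2.89 for aurA, -2.88 for twe, -2.47 for Incenp, -2.44 for fzy, -2.22 for CycB3, -1.60 for cnn and -1.18 for Klp10A, with adjusted p from 1.45e-07 for cnn to 0.0456 for asp. Each of these members was lower against control at day 10 than at day 2, and so it was at day 20.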

How the results depend on the processing

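The change in number of called members is given here where it exceeded 1.5 times. Without the 9 libraries that stand apart, 10 R day 2 is library a alone and 10 R day 10 is library b alone, so no count at 10 R is given. In that fit calls went from 1 to 6 at 5000 R day 2, from 0 to 1 at 10000 R day 2 and from 18 to 31 at 10000 R day 10. For dose steps they went from 0 to 4 (5000 R against 1000 R, day 2), 0 to 2 and 16 to 29 (10000 R against 5000 R, days 2 and 10) and 0 to 1 (20000 R against 10000 R, days 10 and 20), from 2 to 0 for age to day 20, and from 11 to 21 and 13 to 20 for responses that differ between days at 10000 R and 20000 R. Without the 2 libraries high in Yp1 the numbers were 1 (10 R over days), 2 (5000 R day 2) and 17 (day difference at 10000 R). At 10 R day 2, only same-day libraries gave 8, edgeR 4 and DESeq2 4; 10 R over days gave 4 after quantile normalization. At 5000 R day 2, no filter, same-day libraries and edgeR gave 0 and quantile normalization 2. At 20000 R against 10000 R on day 10, edgeR gave 4 and DESeq2 7. Age to day 20 gave 1 with no filter, TMM rescaling, quantile normalization or edgeR.

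Leaving out 1 library in turn gave 0 to 24 calls at 10 R day 2, 0 to 12 at 10 R over days, 0 to 3 at 1000 R day 20, 0 to 5, 0 to 2 and 1 to 2 at 5000 R (day 2, day 20, over days), 14 to 20, 17 to 23 and 18 to 24 at 10000 R (day 10, day 20, over days) and 17 to 21, 16 to 21 and 21 to 23 at 20000 R. It gave 0 to 4 for 5000 R against 1000 R on day 2, 0 to 3, 14 to 21 and 18 to 26 for 10000 R against 5000 R on days 2, 10 and 20, 0 to 3 for 20000 R against 10000 R on day 10, 0 to 7 for age to day 20, and 0 to 2, 9 to 15 and 10 to 15 for day differences at 5000 R, 10000 R and 20000 R. The extremes of 24 and 0 at 10 R day 2 came without its libraries a and b.

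The difference of E2f2 and E2f1 was -0.70 at 10000 R and -0.58 at 20000 R with all libraries, and -1.25 and -1.02 without the 9. Mcm7 at 10000 R over days was 0.23 with all libraries, not called, and -0.66 without the 9, called. Under quantile normalization 11 members at 20000 R and 12 at 10000 R over days turned direction, Cdk1, Cdk2, dap, Bub3 and Orc2 among them at both doses, and of these 0 were called in either fit. Quantile normalization moved the median of all genes over days at 20000 R from 0.08 to 0.27 and that of the members from -0.55 to -0.04, with 20 members lower and 8 higher; relative to the median of all genes the members stood at -0.63 and -0.31. At 10000 R day 10 it gave 12 lower and 13 higher. Of 180 single-gene values, 145 kept side and direction there, 166 with edgeR, 167 with DESeq2 and 152 without the 9 libraries. The cause of these changes was not tested. No paired analysis was possible because the columns carry no replicate number. Members such as cort, stg, Orc6, Cdk1 and cid have low counts, and the part of depth in their values was not tested.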
